A study of Saccharomyces cerevisiae BY4741 with 66 samples.

Results

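The fatty acid synthase of budding yeast is a large assembly of Fas1 and Fas2 subunits, and its malonyl/palmitoyl transferase (MPT) domain is built from the end of Fas1 together with the start of Fas2. The total translatomes of 2 Saccharomyces cerevisiae strains that each lack part of that domain were compared here: a strain with FAS1-GFP and a FAS2 gene without base pairs 1 to 282 (the FAS2 deletion strain, 2 libraries), and a strain whose GFP-tagged FAS1 gene lacks 1165 base pairs up to position 6153 (the FAS1 deletion strain, 2 libraries). They were chosen by their labels, as 4 of the 66 libraries of a study of how protein complexes assemble during translation, of which 50 had a table of values per gene and 25 of these were totals. A total library samples ribosome footprints, the mRNA stretches covered by ribosomes, from a whole lysate pelleted through sucrose, without the pull-down on GFP antibody beads that makes the other (IP) fraction. Both strains are labelled BY4741, carry a GFP tag on Fas1, and grew at 30 °C and 150 rpm in medium supplied with fatty acids, whose kind and amount the labels do not give. Of the totals of strains with full-length tagged subunits, 17 came from YPD, the rich medium, so that against them medium and deletion cannot be told apart. The other 4 came from synthetic medium without tryptophan (TRP2-GFP and TRP3-GFP) or without arginine (CPA1-GFP); they are left out of the YPD ranges, but the 2 TRP2-GFP totals are in the fit that estimates the spread. The replicates are not stated to be separate cultures, and p-values then measure only a spread between libraries that may be technical. In the FAS2 deletion strain and in the FAS1-GFP strain of the fit, however, the replicates differed in mating-type genes. There the spread also holds differences between the cells. The PFK1-GFP and GUS1-GFP strains of the fit showed smaller differences in mating-type genes between their replicates.

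Yeast makes its saturated fatty acids from acetyl-CoA and malonyl-CoA, the latter supplied by the carboxylase Acc1, and cells whose synthase does not work depend on fatty acids from the medium. Fatty acids taken up are activated to acyl-CoA, lengthened and desaturated in the endoplasmic reticulum, built into membrane and storage lipids, or broken down by beta-oxidation in peroxisomes. Oleate in the medium is known to induce the beta-oxidation genes through the Oaf1 and Pip2 activators.

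The libraries of the FAS2 deletion strain did not match each other in mating type, so values with replicate 1 or replicate 2 alone are also given for the called genes, and for lists whose median then moved by over 1.5 times. Haploid yeast is either MATa, which makes a-factor and the alpha-factor receptor Ste2, or MATalpha, which makes alpha-factor and the a-factor receptor Ste3. BY4741 is a MATa strain that lacks MET17, and its sister strain BY4742 is MATalpha and lacks LYS2. Levels are given in RPM, the deposited value of reads relative to the library total, scaled here between libraries. The alpha-factor gene MF(ALPHA)1 stood at 767 RPM in replicate 1 of the FAS2 deletion strain, at 0.226 RPM in replicate 2, and at 0.0280 and 0.200 RPM in the FAS1 deletion strain. STE2 showed the reverse, at 1.31 RPM in replicate 1, 74.9 RPM in replicate 2, and 165 and 115 RPM in the FAS1 deletion strain. Summed over the 6 MATa genes the levels were 7.65 and 415 RPM against 644 and 518 RPM, and over the 4 MATalpha genes 982 and 11.4 RPM against 5.03 and 5.37 RPM, with MF(ALPHA)2 at 0 in replicate 2 of each strain. LYS2, for lysine synthesis, was at 0.109 and 218 RPM against 258 and 263 RPM, and MET17, for homocysteine synthesis, at 640.2 and 0.170 RPM against 0.0559 and 0 RPM. Replicate 1 thus went against its BY4741 label, as did 3 of the 17 YPD totals, in which LYS2 was also under 1 RPM. In a bulk culture, fewer cells of a type and fewer footprints per cell cannot be told apart. Of the 6 MATa genes 5 were lower and none higher in the FAS2 deletion strain without overlap (median log2 difference -2.87, but -5.26 with replicate 1 alone and -0.48 with replicate 2 alone). Of the 4 MATalpha genes 3 were higher and none lower (median 2.96, and 5.41 with replicate 1 alone, while with replicate 2 alone none was tested). None of these genes, LYS2 or MET17 passed the test between the strains, and none of 13 meiosis genes reached the minimum mean of 5 RPM for testing. Of 6 tested auxotrophic marker genes, LYS2 and MET17 included, 4 were lower and 1 higher in the FAS2 deletion strain without overlap, with a median of -0.46, which was -0.48 with replicate 1 and -0.25 with replicate 2 alone.

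**Figure D1:**
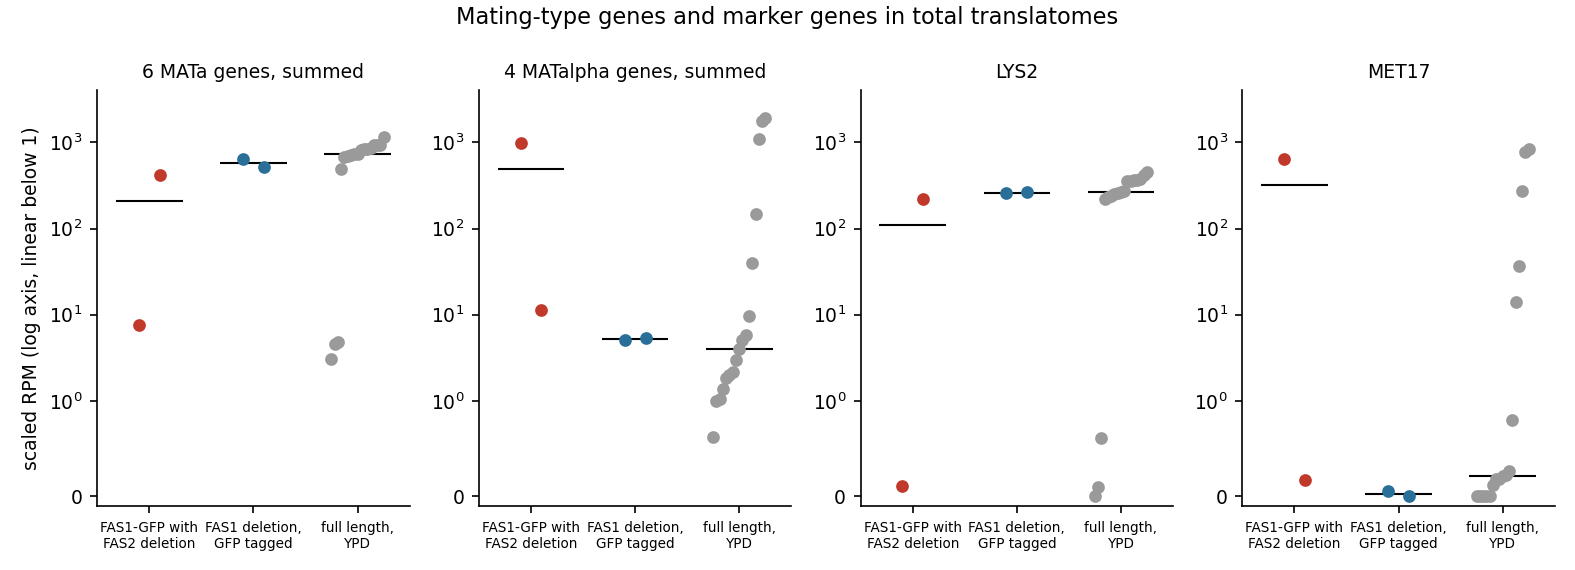
Summed scaled RPM of the 6 MATa genes and of the 4 MATalpha genes, and of LYS2 and MET17, on a log axis that is linear below 1. Points are total libraries, and lines are means of the deletion strains or the median of the 17 YPD totals. The libraries of the FAS2 deletion strain lie apart in all 4 panels, and replicate 2 lies nearer to the FAS1 deletion strain.

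Other library properties also moved with the strains. The files give no read totals. Depth was implied by a flag in the authors' tables, whose boundary was taken here as about 64 reads. It was 9.05 M and 13.1 M reads in the FAS2 deletion strain and 27.7 M and 26.2 M reads in the FAS1 deletion strain. At these depths low genes would be less precise in the FAS2 deletion strain. Only 5.52% to 28.4% of values in these libraries came out as whole reads on that basis, so the depths are uncertain. Over the 5042 features tested, the log2 difference between replicates had an SD of 0.489 in the FAS2 deletion strain and 0.159 in the FAS1 deletion strain, and the pairs correlated at r = 0.965 and r = 0.996 across features, which are not independent replicates. The library labelled total 2 of the FAS2 deletion strain held more FAS2 than the library labelled IP 2 (278 against 29.1 RPM), while total 1 held less than IP 1 (111 against 385 RPM). The library labelled IP 2 correlated with total 2 of the FAS1 deletion strain at r = 0.993, and the library labelled total 2 at r = 0.977. Whether the libraries labelled total 2 and IP 2 of the FAS2 deletion strain were exchanged was not tested. Libraries are used as labelled, and the part of these differences in the results was not tested.

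FAS2 had the larger of the called differences between the strains. FAS2, the alpha subunit gene (YPL231W, chromosome XVI, 108652 to 114315), stood at 111 and 278 RPM in the FAS2 deletion strain and at 1403 and 1141 RPM in the FAS1 deletion strain. The groups did not overlap, and both lay below all 17 YPD totals, as 5.20% of features did. The YPD totals held 1870.1 to 3524 RPM with a median of 2683 RPM. FAS2 was 6.53-fold lower on the group means, a log2 difference of -2.84 ± 0.33 (SE), with an adjusted p of 0.0028 by limma-trend fitted to the 20 totals of the 10 strains with 2 replicates, on log2(scaled RPM + 1), a scale that understates changes of low genes. The deleted stretch is 4.98% of the FAS2 reading frame, which at even footprint density would take 0.07 off the log2 level. With replicate 1 of the FAS2 deletion strain alone the difference was -3.49 (adjusted p = 3.8e-05), and with replicate 2 alone it was -2.18 (adjusted p = 0.0083). Without replicate 1 of the FAS1 deletion strain it was -2.69 and did not pass (adjusted p = 0.10), and in a fit of the 4 libraries alone the adjusted p was 0.098.

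FAS1, the beta subunit gene (YKL182W, chromosome XI, 100671 to 106826), had 4612 and 2822 RPM in the FAS2 deletion strain and 2752 and 2924 RPM in the FAS1 deletion strain. As labelled, the groups overlapped, since the second library of the FAS2 deletion strain lay between those of the FAS1 deletion strain. Only the first library of the FAS2 deletion strain stood above the YPD range of 2254 to 3956 RPM. The libraries labelled IP 1 and IP 2 of that strain, not used in the comparison, held 4690 and 4962 RPM of FAS1. The log2 difference was 0.35 ± 0.23 (adjusted p = 0.72), with a 95% interval of -0.15 to 0.84. The FAS1 deletion strain has lost 18.9% of that reading frame, worth -0.30 on its own log2 level at even density. As that strain is the one subtracted, such a loss would raise the difference, and the interval includes a rise of that size. Its part in the difference was not tested. Per base of full reading frame, FAS2 stood at 0.0262 and 0.107 of the FAS1 level in the FAS2 deletion strain, at 0.554 and 0.424 of it in the FAS1 deletion strain, and at 0.695 to 1.19 of it in the YPD totals. The 3 groups did not overlap in this ratio, and the FAS1 deletion strain lay between the other two. Of the 3 genes listed on either side of FAS1 and of FAS2, none was called, and the lowest adjusted p was 0.60. USV1, a stress-regulated transcription factor gene next to FAS2, did not overlap, at 16.5 and 13.7 RPM against 6.10 and 9.09 RPM (adjusted p = 0.67). Among the 6 tested genes of the synthase and of malonyl-CoA supply, FAS1 and FAS2 included, 2 were higher and 2 lower in the FAS2 deletion strain without overlap, with a median of 0.16 that was 0.23 with replicate 1 and -0.07 with replicate 2 alone.

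**Figure D2:**
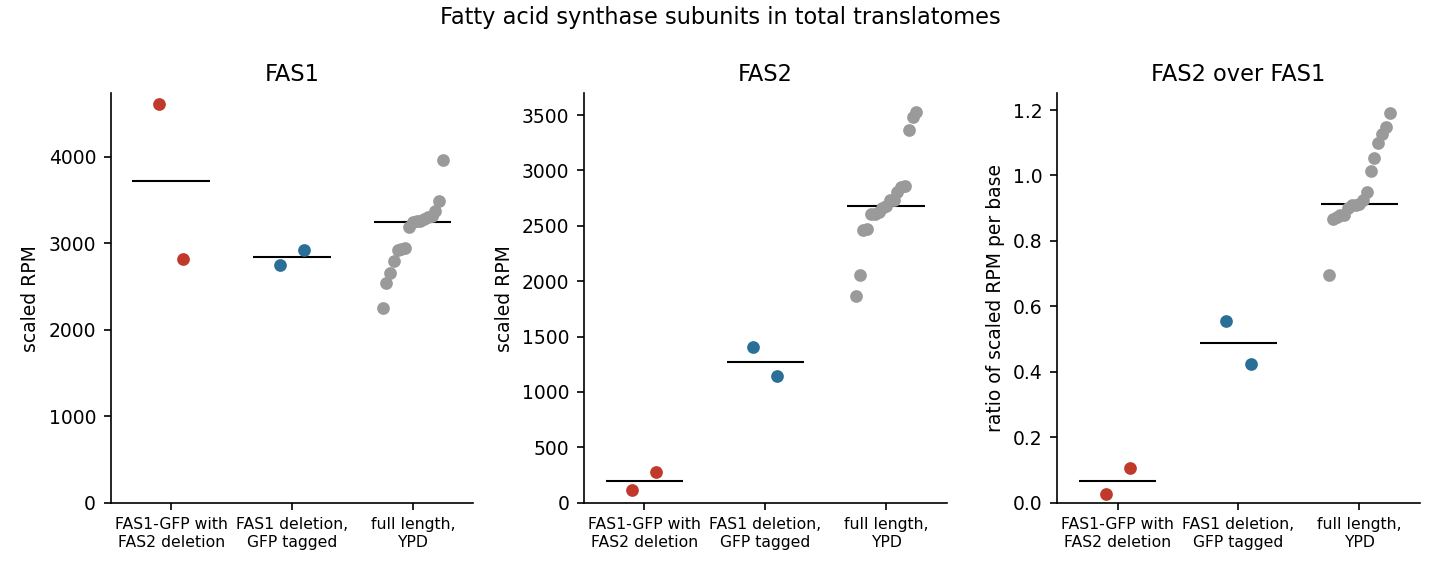
Scaled RPM of FAS1 (left) and FAS2 (middle), and their ratio per base of reading frame (right), in each total library. Points are libraries and lines are means for the deletion strains (2 libraries each) and medians for the 17 YPD totals. FAS2 falls into 3 separate levels, with the FAS2 deletion strain lowest at 111 and 278 RPM, while FAS1 overlaps between the deletion strains.

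Of 5042 features tested, 2 were called (0.0397%), a call being an adjusted p below 0.05 with a log2 difference of 1 or more in size, and both were lower in the FAS2 deletion strain. None was called higher. An unadjusted p under 0.05 was reached by 454 features, FAS2 and KTR6 included. The second called gene was KTR6 (YPL053C, chromosome XVI, 457118 to 458458), a mannosylphosphate transferase of the Golgi that modifies cell wall glycans. KTR6 stood at 18 and 22 RPM against 57.3 and 43.7 RPM, groups that did not overlap, and both libraries of the FAS2 deletion strain lay below the YPD range of 26.9 to 54.4 RPM, a placement that only the FAS2 deletion strain had for 5.02% of features. KTR6 was 2.52-fold lower on the means, a log2 difference of -1.29 ± 0.19 (adjusted p = 0.025). With replicate 1 of the FAS2 deletion strain alone it was -1.42 (adjusted p = 0.047), and with replicate 2 alone -1.15, which did not pass (adjusted p = 0.49). It did not pass without either replicate of the FAS1 deletion strain, at -1.09 and -1.48 (adjusted p = 0.89 and 0.059). Leaving out replicate 1 or 2 of the FAS2 deletion strain gave 1 (0.0199%) or 7 called features, and leaving out replicate 1 or 2 of the FAS1 deletion strain gave 0 or 1 (0.0198%). The count of 0 by limma-trend came with 148 features at an unadjusted p under 0.05. Both libraries of the FAS2 deletion strain exceeded both of the FAS1 deletion strain for 1307 features (25.9%) and lay below both for 1668 (33.1%), and without further scaling these counts were 575 and 2067. The median log2 difference of all features was -0.02, and medians by chromosome ran from -0.05 on XI to 0.10 on I.

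**Figure D3:**
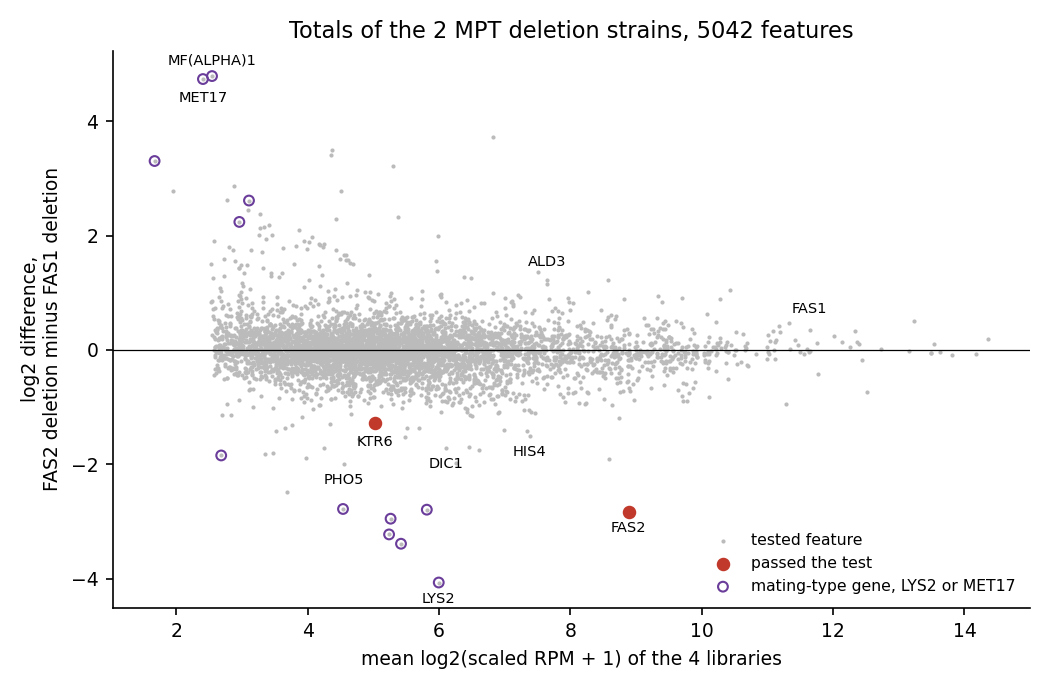
Log2 difference between the deletion strains against mean log2(scaled RPM + 1) for 5042 features of the total libraries. Red points passed the test, FAS2 at -2.84 and KTR6 at -1.29, and open circles are the 10 mating-type genes, LYS2 and MET17, none of which passed.

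DIC1, HIS4 and HIS1 came closest to being called, at an adjusted p of 0.053 with log2 differences beyond -1, and were named after their values were seen. DIC1, the mitochondrial dicarboxylate carrier, stood at 26.2 and 51.6 RPM against 125 and 122 RPM (log2 difference -1.72 ± 0.31). HIS4, a multifunctional enzyme of histidine synthesis, stood at 73.3 and 130.4 RPM against 275 and 285 RPM (log2 difference -1.51 ± 0.27), and all 4 values lay below the YPD range of 423 to 844 RPM. HIS1, the first enzyme of that pathway, stood at 96.9 and 122 RPM against 245 and 206 RPM (log2 difference -1.04 ± 0.19). In all 3 the FAS2 deletion strain was lower without overlap. With replicate 1 of the FAS2 deletion strain alone, 7 features were called (0.139%): FAS2, DIC1, HIS4, KTR6, KEX1 and SHE10 lower and CUP2 higher. KEX1, a processing protease of the Golgi, then had a log2 difference of -1.10, and CUP2, the copper-responsive activator, of 1.39.

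The remaining results are described over lists of genes. FAS2 was the only called member of the 28 lists, and the counts give how many of a list's tested members had groups that did not overlap, beside 25.9% higher and 33.1% lower over all features. Named members are those with the highest mean RPM in a list and, chosen after their values were seen, those whose groups lay far apart.

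Genes that handle fatty acids upstream and downstream of the synthase gave mixed values. ACC1, the acetyl-CoA carboxylase, stood at 3377 and 2716 RPM against 2171 and 2188 RPM with a log2 difference of 0.47 ± 0.21 (adjusted p = 0.52). Of 15 genes of fatty acid activation, elongation and desaturation, 8 were lower and 3 higher in the FAS2 deletion strain without overlap, with a median of -0.20. ELO3, an elongase that makes very long chains, stood at 84.6 and 91.6 RPM against 174 and 139 RPM (log2 difference -0.81 ± 0.18, adjusted p = 0.087). TSC13, the enoyl reductase of elongation, stood at 71.9 and 91.7 RPM against 152 and 130.3 RPM (log2 difference -0.79 ± 0.17, adjusted p = 0.084). Both libraries of the FAS2 deletion strain were lower than both of the other strain for these enzymes and for ELO1, ELO2, IFA38 and PHS1, so that each of the 3 elongases and each of the 3 other elongation enzymes on the list lay on the same side. OLE1, the delta-9 desaturase and the gene of the list with the highest mean RPM, stood at 645 and 598 RPM against 723 and 703 RPM, and all 4 values exceeded the YPD range of 168 to 347 RPM. The acyl-CoA synthetase FAA4 overlapped, at 427 and 334 RPM against 364 and 364 RPM.

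Several beta-oxidation genes stood above the YPD totals in both strains, and none was called between the strains. POX1, the acyl-CoA oxidase that starts peroxisomal beta-oxidation, stood at 12.7 and 13.9 RPM against 14.4 and 15.2 RPM, while the YPD totals held 0 to 0.933 RPM. Its log2 difference between the strains was -0.14 ± 0.37, with a 95% interval of -0.93 to 0.65. POT1, the thiolase of the last step, stood at 20.9 and 13.3 RPM against 10.9 and 12.7 RPM, and at 0 to 3.16 RPM in YPD. CIT2, the peroxisomal citrate synthase, stood at 364 and 348 RPM against 460.3 and 541 RPM, lower without overlap in the FAS2 deletion strain, and at 49.7 to 109.8 RPM in YPD. Of the 18 tested members of 23, 10 lay above every YPD total in both strains, where 6.13% of all features did, and none lay below. Between the strains 8 were higher and 3 lower without overlap, with a median of 0.21, which was 0.21 with replicate 1 and 0.12 with replicate 2 of the FAS2 deletion strain alone. Of the 24 tested peroxisome biogenesis genes, 3 were higher and 9 lower, with a median of -0.07 (-0.12 and -0.06 with replicate 1 or 2 alone), and PEX18, which helps import through the Pex7 receptor, stood at 6.01 and 7.96 RPM against 5.96 and 6.83 RPM, and at 0.669 RPM or less in YPD.

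By the main scaling, most sphingolipid, phospholipid and storage lipid genes had lower values in the FAS2 deletion strain, and none was called. Of 17 sphingolipid genes 14 were lower and none higher without overlap, with a median of -0.47. LAC1, a ceramide synthase subunit, stood at 52.2 and 66.0 RPM against 114 and 101 RPM (log2 difference -0.86 ± 0.20, adjusted p = 0.11), and LCB2, a subunit of the serine palmitoyltransferase that starts the pathway, at 89.5 and 115 RPM against 171 and 151 RPM. Of 24 phospholipid genes 15 were lower and 5 higher, with a median of -0.30. INO1, the inositol-3-phosphate synthase, was among the 5 at 557 and 425 RPM against 258 and 395 RPM, all above the YPD maximum of 40.4 RPM, where the median was 1.58 RPM. Its log2 difference of 0.61 ± 0.92 had a 95% interval of -1.36 to 2.58. Of 12 storage lipid and lipolysis genes 9 were lower and 2 higher (median -0.34, and -0.48 or -0.23 with replicate 1 or 2 of the FAS2 deletion strain alone), with the diacylglycerol acyltransferase DGA1 at 16.3 and 18.2 RPM against 28.2 and 27.7 RPM. Of 26 ergosterol genes 14 were lower and 4 higher (median -0.11), counts that were 10 and 9 once the nuclear sums of all libraries were made equal. With sums made equal, the lower and higher counts were 13 and 2 for sphingolipid, 13 and 4 for phospholipid and 6 and 0 for storage lipid genes. ERG11, the lanosterol demethylase, stood at 177 and 232 RPM against 423 and 356 RPM (log2 difference -0.93 ± 0.23, adjusted p = 0.13), and ERG13, the HMG-CoA synthase, at 547 and 518 RPM against 543 and 546 RPM.

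Amino acid, sulfur and phosphate genes made up the lists with the lowest medians after the MATa genes. Of 29 genes of arginine and amino acid synthesis under Gcn4, the activator of the amino acid starvation response, 26 were lower and none higher without overlap, with a median of -0.72, and 14 had an unadjusted p under 0.05. ARG1, the argininosuccinate synthase, stood at 114 and 344 RPM against 719 and 783 RPM, with a log2 difference of -1.92 ± 0.94 (adjusted p = 0.60). ILV5, an enzyme of branched-chain amino acid synthesis, stood at 1128 and 909.7 RPM against 1182 and 1188 RPM, below the YPD range of 1558 to 3485 RPM in all 4 libraries. GCN4 itself overlapped, at 34.9 and 71.7 RPM against 39.3 and 44.4 RPM. Replicate 1 of the FAS2 deletion strain was lower than replicate 2 for ARG1 and HIS4, and higher for ILV5. The median of the list was -0.72 with replicate 1 alone and -0.63 with replicate 2 alone.

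Of 22 sulfur amino acid genes 19 were lower and 1, MET17, higher, with a median of -0.77. MET3, the ATP sulfurylase that activates sulfate, stood at 40.3 and 56.5 RPM against 139.9 and 176 RPM (log2 difference -1.70 ± 0.56, adjusted p = 0.28). MET6, the methionine synthase, stood at 1714 and 1865 RPM against 3242 and 3667 RPM, and SAM1, which makes S-adenosylmethionine, at 668 and 582 RPM against 1052 and 980.1 RPM. In 7 of the 22 the FAS1 deletion strain alone lay above every YPD total, as 3.23% of all features did. MET17 was read in replicate 1 and was at or near 0 in the other 3 libraries. The median was -0.71 with replicate 1 alone and -0.80 with replicate 2 alone, and any part of MET17 in this was not tested.

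Of 14 genes of the phosphate regulon, induced when phosphate is scarce, 11 were lower and 1 higher, with a median of -0.56. PHO5, a secreted acid phosphatase, stood at 9.62 and 12.1 RPM against 44.5 and 47.4 RPM, and the YPD totals held 46.2 to 170.1 RPM. Its log2 difference was -1.99 ± 0.48, with an adjusted p of 0.11, and it was called in the fit of the 4 libraries alone. PHO84, the high-affinity phosphate transporter, stood at 38.6 and 70.4 RPM against 176 and 181 RPM, with a YPD median of 1075 RPM; it overlaps a non-coding RNA gene, and the strand setting of the counts is not given. VTC4, a polyphosphate synthesis enzyme, stood at 143 and 156 RPM against 183 and 189 RPM, below the YPD range of 286 to 1021 RPM in all 4 libraries. PHO11 and PHO12, near-identical copies whose reads may be shared, stood at 3.28 and 5.92 RPM against 18.8 and 17.6 RPM and at 3.72 and 6.53 RPM against 19.5 and 20.2 RPM.

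**Figure D4:**
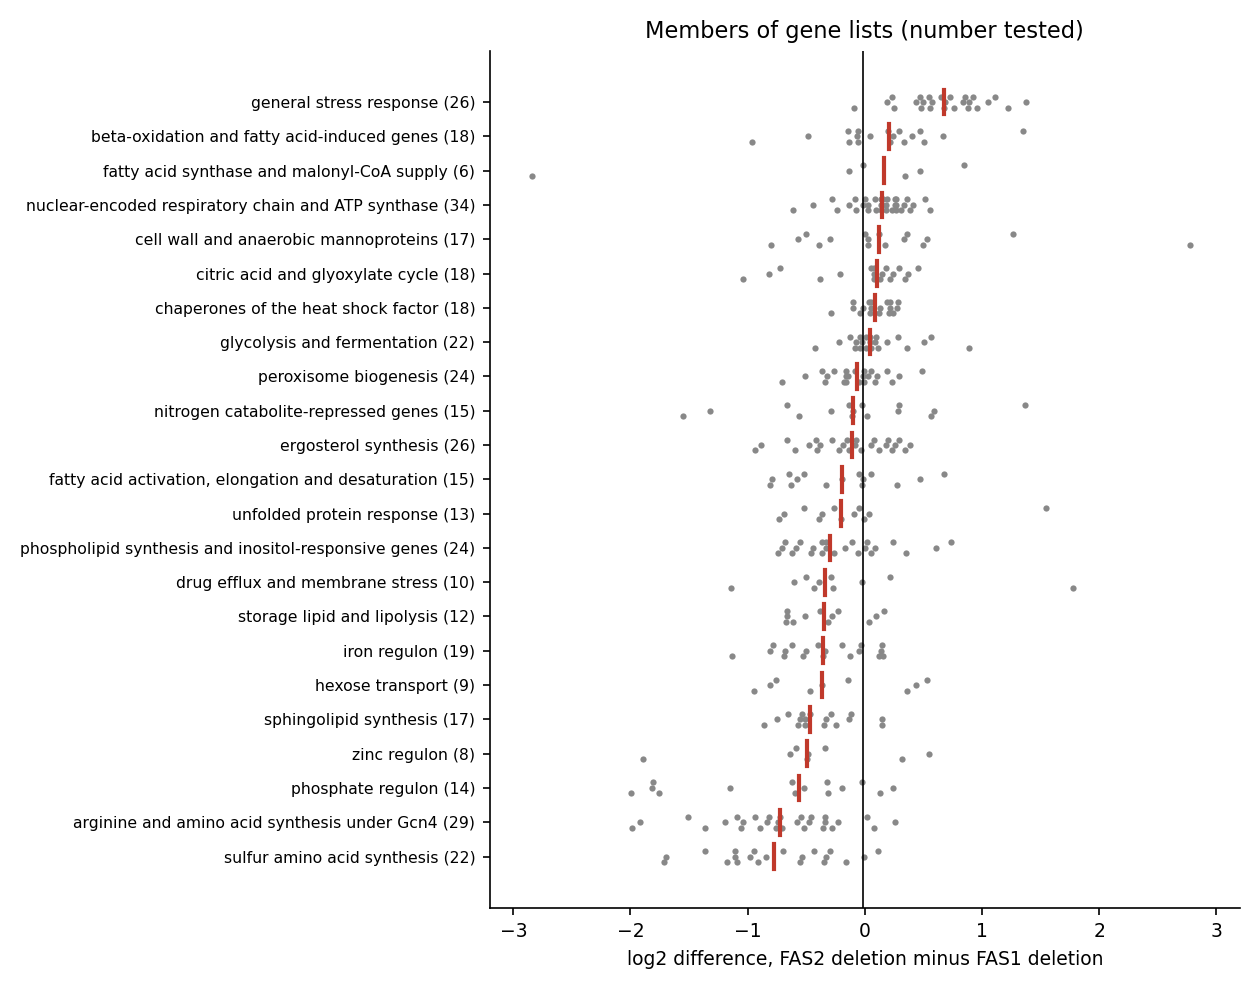
Log2 difference between the deletion strains for tested members of 23 gene lists (grey points). The list's median is in red, the number tested in brackets, and the median of all features is a vertical line. Members beyond the axis range, such as MET17, are not drawn, though the medians include them. Medians run from -0.77 for sulfur amino acid synthesis to 0.68 for the general stress response.

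The general stress response was the list with the highest median after the MATalpha genes. Of its 26 genes, 24 were higher and 1 lower in the FAS2 deletion strain without overlap, with a median of 0.68, and 3 had an unadjusted p under 0.05. HSP12, a membrane-protecting small heat shock protein gene, stood at 2983 and 1317 RPM against 820.4 and 1112 RPM, with a log2 difference of 1.05 ± 1.28 (adjusted p = 0.88). ALD3, an aldehyde dehydrogenase, stood at 411 and 228 RPM against 114 and 149 RPM (log2 difference 1.22 ± 0.43, adjusted p = 0.33), and TKL2, the minor transketolase, at 162 and 62.2 RPM against 33.6 and 43.3 RPM (log2 difference 1.37 ± 0.52, adjusted p = 0.37). Both strains lay above every YPD total for 20 of the 26, as 6.13% of all features did, a share that depends on the scaling. HSP12 had a median of 5.63 RPM in the YPD totals. The lower gene was YGP1, a secreted glycoprotein gene, at 801 and 787 RPM against 842 and 855 RPM. The median was 0.92 with replicate 1 of the FAS2 deletion strain alone and 0.49 with replicate 2 alone. Of 18 chaperone genes of the heat shock factor, 2 were higher and 1 lower (median 0.09), and SSA2, a cytosolic Hsp70, stood at 5586 and 3964 RPM against 4557 and 4057 RPM.

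**Figure D5:**
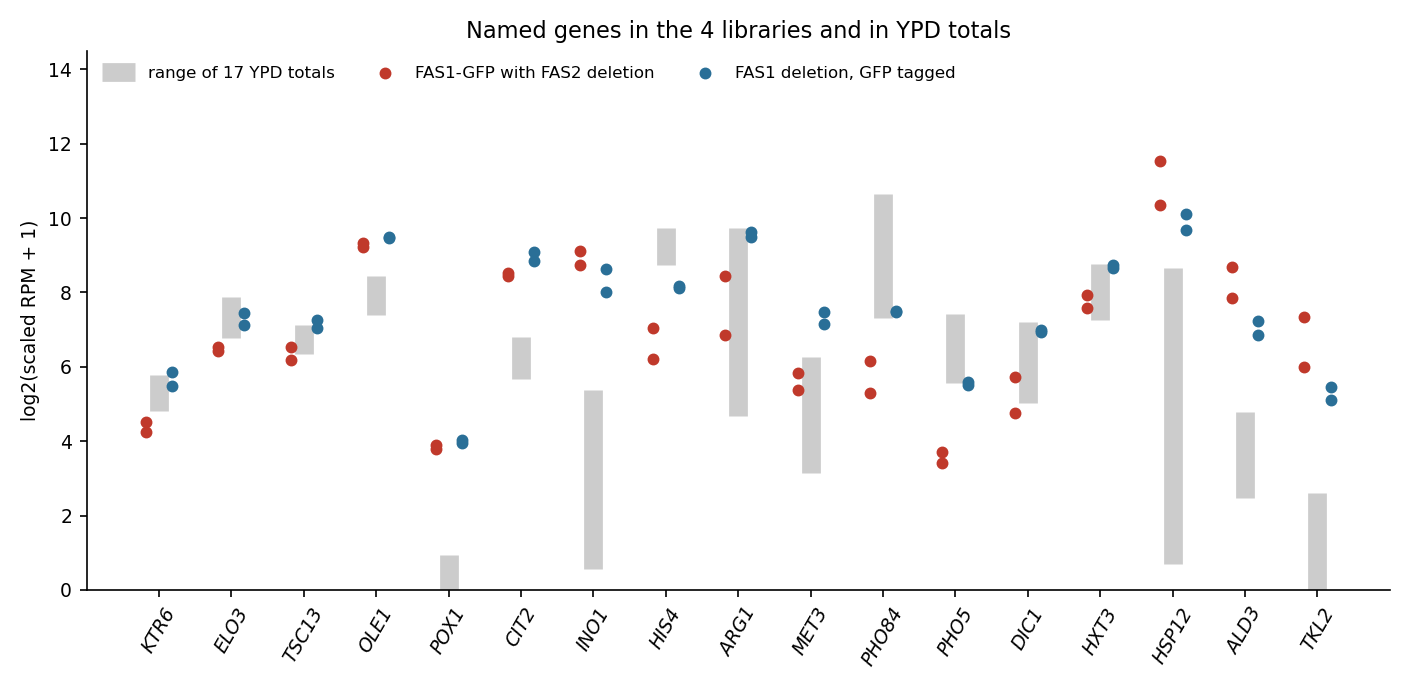
Log2(scaled RPM + 1) of 17 named genes in the libraries of the FAS2 deletion strain (red) and of the FAS1 deletion strain (blue), with the range of the 17 YPD totals as a grey bar. POX1, CIT2, OLE1, INO1, HSP12, ALD3 and TKL2 lie above the bar in all 4 libraries, and HIS4 lies below it.

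No gene of carbon metabolism was called. Of 22 genes of glycolysis and fermentation 3 were higher and 2 lower without overlap (median 0.04), with PDC1, the main pyruvate decarboxylase, at 27963 and 18040.0 RPM against 19789 and 19546 RPM. Of 9 hexose transporter and sensor genes 6 were lower and 3 higher (median -0.36, but -0.57 with replicate 1 and -0.22 with replicate 2 of the FAS2 deletion strain alone), with HXT3, a low-affinity transporter, at 189.7 and 242 RPM against 426 and 402 RPM (log2 difference -0.95 ± 0.19, adjusted p = 0.066). In the citric acid cycle 5 of 18 genes were lower and 4 higher (median 0.11), and ACO1, the aconitase, stood at 856 and 803 RPM against 1490.2 and 1440.0 RPM (log2 difference -0.82 ± 0.22, adjusted p = 0.16). The 34 respiratory chain and ATP synthase genes gave 8 higher and 5 lower (median 0.15), with ATP2, the beta subunit of the synthase, at 768 and 688 RPM against 620.3 and 654 RPM. The medians of the glycolysis, citric acid cycle, respiratory and chaperone lists were 0.29, 0.33, 0.37 and 0.18 with replicate 1 of the FAS2 deletion strain alone and -0.19, -0.08, -0.04 and -0.07 with replicate 2 alone. They were also negative without further scaling, which shifts the median of all features to -0.17. Mitochondrially encoded features, left out of the tests, summed to 2800 and 6141 RPM in the FAS2 deletion strain and 805 and 701 RPM in the FAS1 deletion strain as deposited.

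Among the smaller lists, 8 of 19 iron genes were lower and none higher (median -0.35, but -0.65 with replicate 1 and -0.01 with replicate 2 of the FAS2 deletion strain alone), with the ferroxidase FET3 at 245 and 391.7 RPM against 476 and 402 RPM. Of 8 zinc genes 6 were lower and 2 higher (median -0.49), with the vacuolar transporter ZRC1 at 52.1 and 67.8 RPM against 102 and 78.6 RPM. Of 15 nitrogen genes 7 were lower and 5 higher (median -0.10, and -0.07 or -0.04 with replicate 1 or 2 alone), with the glutamine synthetase GLN1 at 501 and 454 RPM against 709 and 801 RPM. Of 10 drug efflux genes 6 were lower and 2 higher (median -0.34, but -0.63 and -0.09 with replicate 1 or 2 alone), with the efflux pump PDR5 at 860.2 and 1508 RPM against 1680.0 and 1552 RPM. Of 17 cell wall genes 4 were lower and 3 higher (median 0.12, with 0.20 or -0.03 from replicate 1 or 2 alone, and negative without further scaling), with the mannoprotein CWP2 at 3978 and 3229 RPM against 3133 and 3478 RPM. Of 13 genes of the unfolded protein response 7 were lower and 1 higher (median -0.21). HAC1, its transcription factor, was the higher gene at 87.7 and 127 RPM against 34.7 and 36.1 RPM, and the disulfide isomerase PDI1 overlapped at 945 and 594 RPM against 839 and 678 RPM. Of 9 haploid-specific genes 4 were lower and none higher (median -0.12, and -0.08 or -0.18 with replicate 1 or 2 alone), with STE4, the G protein beta subunit of mating, at 39.0 and 45.0 RPM against 57.1 and 49.5 RPM.

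Some positive differences came from features whose reads cannot be assigned with certainty. The 8 YRF1 helicase genes of the subtelomeric Y' elements, near-identical copies, summed to 233 and 442 RPM in the FAS2 deletion strain and 97.6 and 100.3 RPM in the FAS1 deletion strain. All 8 were higher without overlap, by 1.5 to 1.8 on the log2 scale, and none passed the test. In a fit that weighted libraries by their spread (array weights), all 8 were called. That fit called 26 of 5042 features higher. Of 27 tested features over non-coding RNA genes 15 were higher and 4 lower, with a median of 0.49, and again none passed. The largest was YLR154C-G, a small frame over ribosomal RNA genes, at 454 and 374 RPM against 37.2 and 24.8 RPM. It was called higher in the fit of the 4 libraries alone.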

How the data were processed

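The authors deposited 1 table per library with a value for each of 6605 features in RPM, reads relative to the total of the library; the submitters' processing notes name cutadapt 1.8.3, and no source used here gives aligner, build, counting rule or strand. Whole reads could not be recovered (5.52% to 28.4% of values came out whole), so counts were not tested. The 6574 nuclear features were scaled by trimmed means of log ratios (trimming fractions of 0.3 for ratios and 0.05 for means). Log2(scaled RPM + 1) was fitted with limma 3.58.1 in R 4.3.3, with a trend and Benjamini-Hochberg adjustment, over 20 totals of 10 strains, testing the 5042 features that averaged 5 RPM or more in the compared libraries. Calls needed an adjusted p below 0.05 and a log2 difference of 1 or more in either direction. Named genes are FAS1, FAS2, the called genes, the members with the highest means in lists where none was called, the mating-type markers, and genes said to be chosen after their values were seen. Members and lists were chosen with earlier results of these data known. Names and positions are from RefSeq's R64 table, whose coordinates equal those of 5887 of 5919 matched features. The procedure was also run on simulated data with the same noise in every library. Real replicates differed in spread between strains, so the outcome does not carry over to these data. Depth limits low genes, and no interval from counts can be given.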

Additional observations from a re-analysis of the deposited data

How the results depend on the processing

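FAS2 was lower in the FAS2 deletion strain under every alternative run, with log2 differences of -3.49 to -2.18 when each library was left out in turn. Its call was lost in the 4 libraries alone (-2.86), in the totals and IPs of 10 strains together (-2.79), in the totals of the 4 synthase strains (-2.85) and without replicate 1 of the FAS1 deletion strain (-2.69). The adjusted p in these was 0.098, 0.30, 0.30 and 0.10; the cause was not tested. KTR6 stayed negative throughout, at -1.48 to -1.09, and lost its call in 8 alternatives. FAS1 was at -0.0074 without replicate 1 of the FAS2 deletion strain, and -0.0074 to 0.70 over the left-out libraries. The count of called features was 1 without further scaling, 1 with equal totals, 6 with no filter on low values, 5 with a minimum mean of 20 RPM, 6 in the 4 libraries alone (5 higher), and 58 with array weights (26 higher, 32 lower). It was 0 by limma with the IPs and 0 in the synthase strains, with 216 and 514 features at an unadjusted p under 0.05, and 0 to 7 over the left-out libraries. Features of both strains above every YPD total numbered 516 without further scaling and 527 with equal totals, and those below numbered 39 and 101, so placements against YPD depend on the scaling. Groups that did not overlap were higher in 43.9% of cases, in 21.8% without further scaling and in 50.9% with equal totals. Of 27 list medians 21 kept their sign under every scaling. With the replicate number as a block the count was 2, and with crossed numbers, chosen after seeing the data, it was also 2; neither changed a call of FAS2 or KTR6. Deviations of same-numbered libraries correlated at -0.16, so the numbers are not taken as pairs.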
